A study of Mus musculus with 6 samples.

Results

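The genes described here encode the translation factors and aminoacyl-tRNA synthetases of mouse kidney cells. They were chosen by symbol alone: every listed gene whose symbol starts with Eif and a digit from 1 to 6, or with Eef and 1 or 2, and every symbol made of 1 capital letter followed by ars or ars2. Of 98 such symbols *Eif2s3y*, a Y-linked copy, was left out, so that 97 of the 12125 listed genes were members. They comprise 65 factors and their modifiers or regulators and 32 synthetases. Of these, 16 with symbols ending in ars are called cytosolic here and 16 ending in ars2 mitochondrial. This split follows the symbols and does not show that an enzyme called cytosolic works in the cytosol only.

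The study deleted *Trf1* in cells that express Cre recombinase from the *Col1a2* promoter, and RNA-seq compared Trf1+/+ with Trf1flox/flox kidneys (3 libraries each). All mice of both groups carried the tamoxifen-inducible Col1a2-CreERT2 transgene and a KFP reporter, a red fluorescent protein behind a stop cassette that Cre removes. Male and female mice were 6 to 8 weeks old when tamoxifen injections began, 3 times a week for 8 weeks, so that the controls received Cre and tamoxifen too. For each library 500 cells were sorted after staining for CD29 and KFP, and whether the sequenced cells carried CD29, KFP or both is not given in the sources used here. Their RNA was copied from oligo(dT) primers and amplified. Each group was made up of 3 mice.

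Synthesis of a protein begins when initiation factors bring the initiator tRNA and the small ribosomal subunit to the cap of an mRNA and find the start codon. Elongation factors then deliver tRNAs and move the ribosome along, and each tRNA has been loaded with its amino acid by a synthetase. Phosphorylation of eIF2α slows initiation and favours translation of ATF4, a transcription factor whose known targets include several cytosolic synthetases.

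The libraries held 10263382 to 12248797 reads on the listed genes. The library labelled Trf1+/+ replicate 1 stood apart, with a median normalized count of 13.4 where the other 5 had 118 to 148. Its count of *Terf1*, the gene for TRF1, also goes against its label, at 0.891, where the other Trf1+/+ libraries had 253 and 235. In that library 43.8% of all listed genes were at 3 reads or fewer, so this low count alone does not tell its genotype. The Trf1flox/flox libraries had 110.0, 7.65 and 12.4, the first of them high for its label. *Terf1* had a log2 fold change of -1.04 ± 2.22 (SE, limma, adjusted p = 0.996). The libraries are labelled fibroblasts, but only 3 of 12 fibroblast markers had a row, and those summed to 1.66 to 105 normalized counts per library. *Col1a2*, whose promoter drives Cre, was at 3 reads or fewer in every library. All 12 proximal tubule markers were listed (36478 to 172233 summed), as were all 7 loop and distal tubule markers (63399 to 169407), 1 of 6 endothelial markers (0.859 to 12), 4 of 8 leukocyte markers (0 to 2513) and all 5 red cell markers (121 to 52403). In such bulk samples fewer cells of a type and less RNA per cell cannot be told apart.

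In limma no member differed between the genotypes after adjustment over all genes tested, nor in edgeR, while DESeq2 called 1, *Vars*, described with the synthetases. The whole set moved little, with 48 of 91 tested members higher in Trf1flox/flox and 43 lower. Their median log2 fold change was 0.04, against 0.20 over all 9966 tested genes, of which 5571 were higher and 4395 lower. Rescaling the libraries to the same upper quartile raised both medians, to 0.32 and 0.44, and the count of higher members to 63. Without the library labelled Trf1+/+ replicate 1 the order of the medians turned, to 0.10 for the members and -0.03 for all genes. The 97 genes together took up 1.02%, 0.671% and 0.566% of the Trf1+/+ libraries and 0.721%, 0.625% and 0.945% of the Trf1flox/flox libraries, so that the groups overlapped.

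A gene was tested if its normalized count reached 10 in 3 or more libraries. The 6 members that did not pass were *Eef1akmt3*, *Eef1aknmt*, *Eef2k*, *Vars2*, *Yars2* and *Eif5a2*. Fold changes are differences of group means of log2(normalized count + 1), Trf1flox/flox minus Trf1+/+. For a gene without reads in a whole group the fitted value depends on the setting. *Vars* had 6.33, but 7.31 with a pseudocount of 0.5, 3.27 with a pseudocount of 10 and 10.2 in edgeR. The fold changes can overstate a change where a single library fell to the floor. *Eif4g1* had 3.15 and *Eif2b5* -3.72, against 1.54 and -1.60 in edgeR. At an adjusted p under 0.05 limma called 0 of the 91 members, and over all genes 0.0% were called. At an unadjusted p under 0.05 there were 454 genes in limma, 196 in edgeR and 410 in DESeq2. Among the members 2 were higher at an unadjusted p under 0.05 in limma, where 3.54% of all genes were, and 0 were lower, where 1.01% of all genes were. One of the 2, *Vars*, passed the filter only through the Trf1flox/flox libraries, where it is high, and the other was *Gars*. All 3 Trf1flox/flox libraries lay above all 3 Trf1+/+ libraries for 4 members (4.4%, against 5.35% of all genes), and below them for 2 (2.2%, against 3.33%). None of these shares was above that of all genes.

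**Figure D1:**
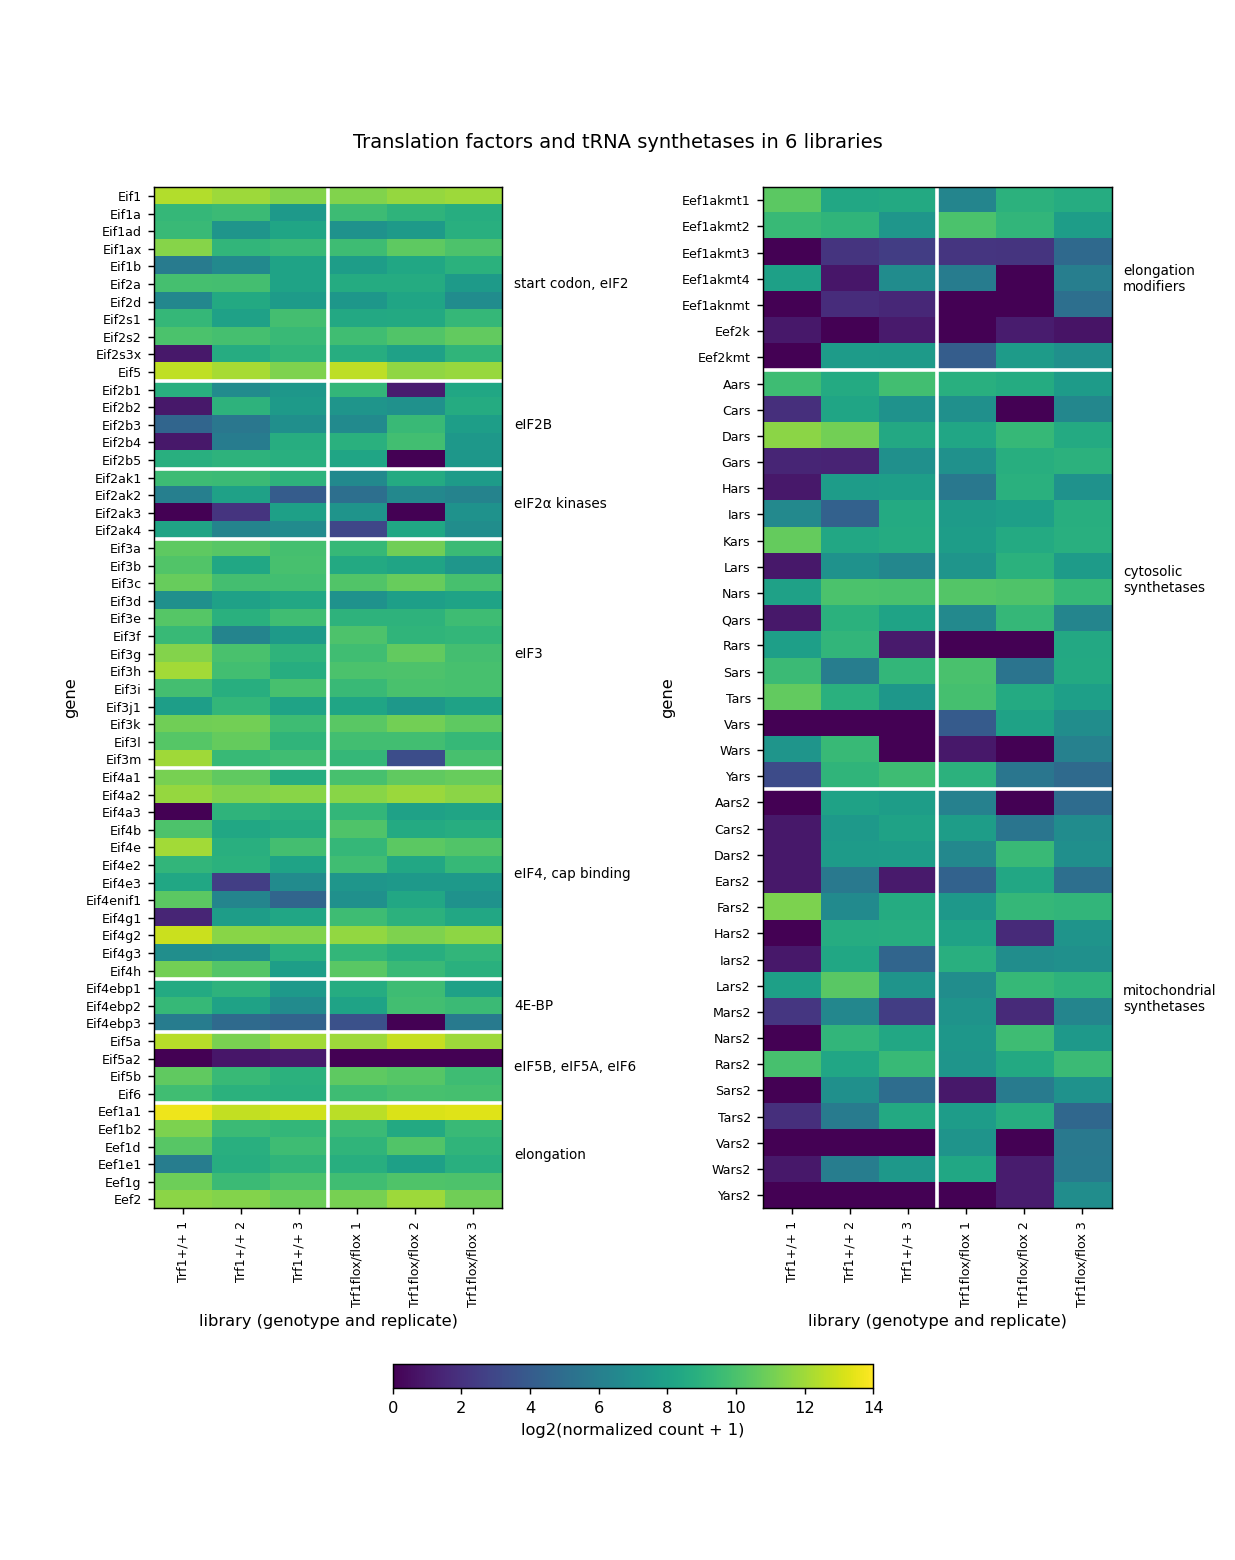
Colour gives log2(normalized count + 1) of each of the 97 members (rows, grouped by role) in each of the 6 libraries (columns, 3 per genotype). The rows of the eIF3 subunits are filled across all libraries, while the library labelled Trf1+/+ replicate 1 is dark in 12 of 16 mitochondrial synthetases.

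The factors that choose the start codon and carry the initiator tRNA were present throughout. Of their 11 genes 6 were higher and 5 lower in Trf1flox/flox, with a median log2 fold change of 0.00 (0.28 after upper quartile scaling). *Eif5*, which triggers GTP hydrolysis by eIF2 at the start codon, was at 6509, 4570.4 and 2555 normalized counts in Trf1+/+ libraries and at 6322, 3324 and 3654 in Trf1flox/flox libraries. The highest and the lowest of these 6 values both came from Trf1+/+ libraries. *Eif2s1*, the α subunit of eIF2 that the stress kinases phosphorylate, had 632, 253 and 889.8 in Trf1+/+ and 351, 366 and 652 in Trf1flox/flox libraries. All 3 of its Trf1flox/flox values lay inside the Trf1+/+ range. *Eif2s3x*, the γ subunit, was the 1 gene of this group that reached 3 reads or fewer, with 1 read in the library labelled Trf1+/+ replicate 1 and 252 to 575 normalized counts in the other 5.

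eIF2B recycles eIF2 by exchanging its GDP for GTP, and its 5 subunits did not move together. *Eif2b5*, the catalytic ε subunit (ENSMUSG00000003235, GRCm38 chromosome 16, 20498817 to 20509323), was measured at 461, 537 and 459 in Trf1+/+ libraries. The Trf1flox/flox libraries held 298, 0 and 166. The groups did not overlap, and the Trf1+/+ libraries were close together, while Trf1flox/flox replicate 2 held no read. Its log2 fold change was -3.72 ± 2.23 (SE, limma, unadjusted p = 0.145, adjusted p = 0.996), and -1.12 without that library. *Eif2b4*, the δ subunit, had 0.891, 57.2 and 416 in Trf1+/+ and 479, 872 and 178 in Trf1flox/flox libraries. The groups overlapped, with a log2 fold change of 3.56 ± 2.04 (SE, limma, adjusted p = 0.996) that became 1.44 without the library labelled Trf1+/+ replicate 1. *Eif2b1* fell to 1 read in Trf1flox/flox replicate 2 and *Eif2b2* to 1 read in the library labelled Trf1+/+ replicate 1, and both had 106 normalized counts or more elsewhere. *Eif2b3* stayed above the floor in every library and ranged from 22.3 to 716. The median over the 5 subunits was 1.81 with all libraries and -0.65 without the library labelled Trf1+/+ replicate 1.

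The 4 kinases of eIF2α each answer to a different stress. *Eif2ak1*, the heme-regulated kinase (ENSMUSG00000029613, chromosome 5, 143817788 to 143904251), reached 771, 747 and 535 normalized counts in Trf1+/+ libraries but 101, 376 and 203 in Trf1flox/flox libraries. All 3 Trf1flox/flox values lay below all 3 Trf1+/+ values, and no library was near the floor. Trf1+/+ libraries averaged 685 ± 130.1 and Trf1flox/flox libraries 227 ± 139 (SD, n = 3 each). The log2 fold change of -1.77 ± 0.85 (SE, limma, adjusted p = 0.996) did not pass the test, and it lay between -2.23 and -1.29 as each library was left out. In this gene 11.6% of exon bases overlap exons of *Aimp2* and *Ankrd61*, whose reads an unstranded library cannot separate.

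The other kinases showed no such separation. *Eif2ak2*, the kinase PKR that senses double-stranded RNA, had 65.9, 261 and 15.8 in Trf1+/+ and 33.5, 91.8 and 77.2 in Trf1flox/flox libraries. *Eif2ak3*, the kinase PERK of the endoplasmic reticulum, had 0, 3.31 and 243 in Trf1+/+ and 152, 0 and 138 in Trf1flox/flox libraries. *Eif2ak4*, the kinase GCN2 that senses uncharged tRNA, had 284, 79.5 and 108 in Trf1+/+ and 6.87, 320.2 and 114 in Trf1flox/flox libraries. In all 3 of these genes the within-group SD on the log2 scale was larger than the log2 fold change.

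eIF3 holds the small subunit ready for the mRNA, and none of its 13 listed subunits was at 3 reads or fewer in any library. Of these subunits 4 were higher and 9 lower in Trf1flox/flox, with a median log2 fold change of -0.17, which turned to 0.11 with 7 higher after upper quartile scaling. The median within-group SD on the log2 scale was 0.62, compared with 1.25 over the tested members and 2.17 over all tested genes. These sets differ in level, with median mean counts of 973, 456 and 214. Over all tested genes between 300 and 1000 counts the median SD was 1.15, and above 1000 counts it was 0.65. In these 2 ranges 17.8% and 0.573% of all tested genes reached the floor in at least 1 library. *Eif3k* was at 1968, 2051 and 819 normalized counts in Trf1+/+ libraries and at 1345, 2068 and 1449 in Trf1flox/flox libraries. Its groups overlapped almost completely, with means of 1613 ± 689 and 1620.5 ± 391 (SD, n = 3 each). The exception to the even coverage was *Eif3m*, with 8.74 normalized counts in Trf1flox/flox replicate 2 and 635 to 4071 in the other libraries.

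Subunits of 1 complex differed in level when compared per kilobase of exon, counting all annotated exons of a gene. Within a library the median over the subunits lay between 153 and 342 normalized counts per kb. The lowest subunit per kb was *Eif3d*, *Eif3f*, *Eif3j1* or *Eif3m*, depending on the library, at 3.38 to 47.2, and the highest was *Eif3h*, *Eif3k*, *Eif3m* or *Eif3g*, at 317 to 2636. In *Eif3j1*, *Eif3m* and *Eif3h* 54.8%, 37.1% and 26.2% of 50-base stretches occur in other genes too, so their place in this order is uncertain. The exons of *Eif3d* span 4968 bases, but its protein-coding transcripts hold 2036 different 50-base stretches, against 5830 and 5364 for *Eif3j1*. The order of the subunits thus depends on the length used. By the length used here *Eif3m* was the highest subunit in Trf1+/+ replicate 3 and the lowest in Trf1flox/flox replicate 2.

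The eIF4 proteins bind the cap, unwind the leader of the mRNA and hold both ends together. Of 12 genes tested, 9 were higher in Trf1flox/flox, with a median log2 fold change of 0.34 (11 higher and 0.61 after upper quartile scaling). *Eif4g1*, the scaffold that joins the cap-binding protein to the helicase (ENSMUSG00000045983, chromosome 16, 20668313 to 20692884), was at 1.78, 219 and 314 normalized counts in Trf1+/+ libraries and at 798, 504 and 330.1 in Trf1flox/flox libraries. Its groups did not overlap, although the lowest Trf1flox/flox value was only just above the highest Trf1+/+ value. The log2 fold change was 3.15 ± 1.93 (SE, limma, unadjusted p = 0.154, adjusted p = 0.996), and 0.96 without the library labelled Trf1+/+ replicate 1, which held 2 reads of it. *Eif4g2*, a relative of *Eif4g1* that does not bind the cap protein, had 7400.0, 2967 and 2642 in Trf1+/+ and 3368, 2531 and 3138 in Trf1flox/flox libraries. Here the library labelled Trf1+/+ replicate 1 was the highest, and the other 5 libraries lay close together.

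The helicase of this complex is made from 2 similar genes, of which *Eif4a2* was the steadier. *Eif4a2* had 3473, 2649.8 and 2865 in Trf1+/+ and 2904, 3787 and 3029 in Trf1flox/flox libraries. Its within-group SD of 0.20 on the log2 scale was the smallest of the tested members. *Eif4a1* had 2243, 1509.6 and 421 in Trf1+/+ and 977, 1518 and 1728 in Trf1flox/flox libraries, with a within-group SD of 0.94. Per kb of all annotated exons *Eif4a2* exceeded *Eif4a1* in all 6 libraries, by 1.26 to 5.53 times. These exons span 5338 and 4334 bases, but the protein-coding transcripts hold only 3303 and 1725 different 50-base stretches. The order per kb thus depends on the length used. In addition, 65.3% of the 50-base stretches of *Eif4a1* also occur in other genes (mostly in *Eif4a-ps4*), so its count is uncertain. *Eif4e*, the cap-binding protein, had 4338, 448 and 909 in Trf1+/+ and 647, 1393 and 1159.8 in Trf1flox/flox libraries, with all Trf1flox/flox values inside the Trf1+/+ range.

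The 4E-BP proteins hold back eIF4E until mTOR phosphorylates them. *Eif4ebp1* had 378, 526 and 183 in Trf1+/+ and 402, 813 and 258 in Trf1flox/flox libraries. *Eif4ebp2* had 656, 268 and 108 in Trf1+/+ and 282, 882 and 735 in Trf1flox/flox libraries. Both overlapped widely between the genotypes. *Eif4ebp3* was the scarce member, at 0 to 58.8, and 65.5% of its 50-base stretches occur in another gene as well.

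The group of *Eif5b*, *Eif5a* and *Eif6* had the same sign in all 3 tested cases, and none passed the test. Its median log2 fold change was 0.51 (0.79 after upper quartile scaling). That of *Eif5a* lay between -0.06 and 0.59 as each library was left out, so the shared sign was not stable. *Eif6*, which keeps the large subunit from joining too early, had 827, 486 and 460.2 in Trf1+/+ and 793, 972 and 930.3 in Trf1flox/flox libraries. The library labelled Trf1+/+ replicate 1 lay within the Trf1flox/flox range, and the other 2 Trf1+/+ libraries lay below it. *Eif5a*, which helps the ribosome over difficult stretches and carries the modified residue hypusine, had 5815, 2353 and 4257 in Trf1+/+ and 3919, 7078 and 3933 in Trf1flox/flox libraries. Its relative *Eif5a2* had at most 1 read in any library, while *Eif5a* had at least 2353 normalized counts in each.

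Elongation factors were among the most abundant members per kb. *Eef1a1*, which brings charged tRNA to the ribosome, averaged 3549 normalized counts per kb, above *Eif5a* at 1918, *Eif1* at 1742, *Eif3h* at 896 and *Eef2* at 795. In *Eef1a1* 53.6% of 50-base stretches recur in 21 other genes, so this level is uncertain. The Trf1+/+ libraries held 12958, 6628 and 8024 normalized counts of it and the Trf1flox/flox libraries 5969, 9299 and 10213. *Eef2*, which moves the ribosome by 1 codon, had 3085, 2707 and 1913 in Trf1+/+ and 2231, 3941 and 1975 in Trf1flox/flox libraries. The groups overlapped in both genes, with means for *Eef2* of 2568 ± 599 and 2716 ± 1069 (SD, n = 3 each). Over the 6 genes grouped with elongation by symbol the median log2 fold change was -0.09 (0.19 after upper quartile scaling). None was at the floor in any library. *Eef1e1*, whose symbol alone placed it in this group, had the highest fold change of them, 0.56.

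Enzymes that modify elongation factors were much less even. *Eef2k*, the kinase that inhibits eEF2, had 0.891, 0 and 0.985 in Trf1+/+ and 0, 1.09 and 0.689 in Trf1flox/flox libraries, at most 1 read each, while its substrate *Eef2* had at least 1913 normalized counts. *Eef1aknmt*, a methyltransferase of eEF1A, had 0, 2.49 and 1.97 in Trf1+/+ and 0, 0 and 33.8 in Trf1flox/flox libraries. *Eef1akmt2*, an eEF1A lysine methyltransferase, had 696, 578 and 164 in Trf1+/+ and 1059, 602 and 222 in Trf1flox/flox libraries. Only the last of these was detected above the floor in all libraries.

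**Figure D2:**
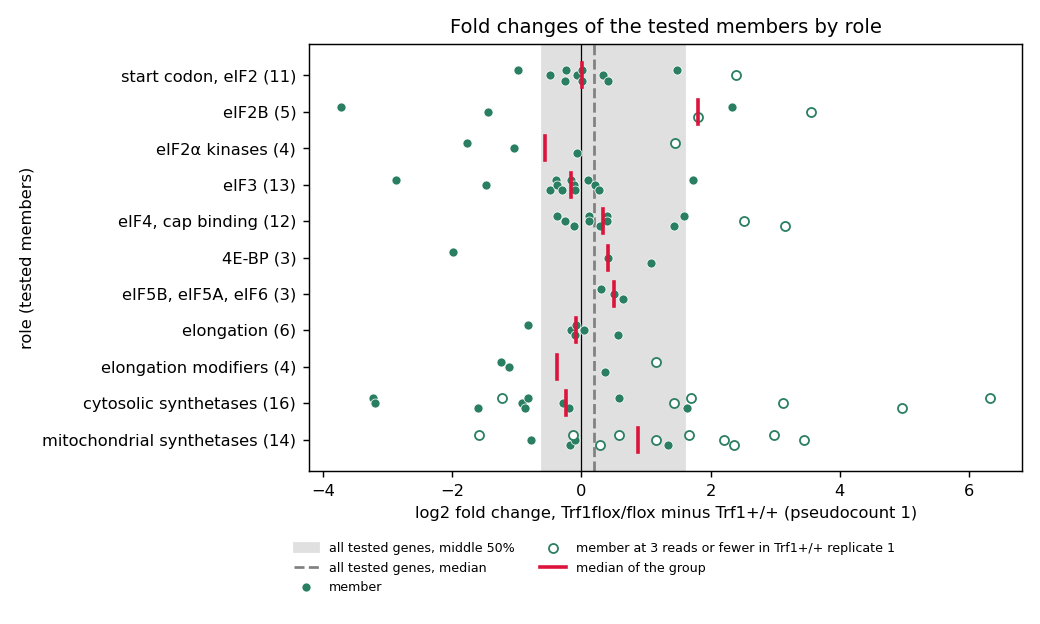
Each point is a tested member, placed by its log2 fold change (horizontal axis) and role (vertical axis, with the number tested), open where the gene had 3 reads or fewer in the library labelled Trf1+/+ replicate 1. Red bars mark group medians, the dashed line the median of all tested genes (0.20) and the grey band their middle 50%. Most open points, 20 of 23, lie right of 0.

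The synthetases varied far more between libraries than the factors did. The median within-group SD on the log2 scale was 2.71 over the 30 tested synthetases and 0.89 over the 61 tested factors. In the library labelled Trf1+/+ replicate 1, 16 of the 30 tested synthetases (53.3%) were at 3 reads or fewer, against 7 of the 61 factors (11.5%) and 34.4% of all tested genes. In Trf1flox/flox replicate 2 the shares were 23.3%, 8.20% and 20.0%, and in Trf1flox/flox replicate 3 they were 0%, 0% and 2.48%. The synthetases had the lower levels, with a median mean count of 203 against 539 for the factors. Over all tested genes the median mean count was 214, near that of the synthetases, and the median within-group SD was 2.17.

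**Figure D3:**
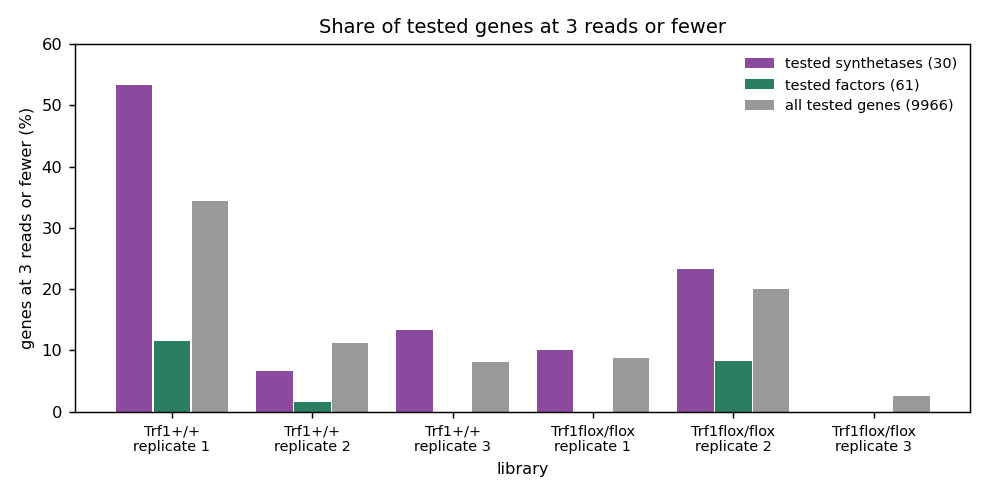
Bars give the share of tested genes (vertical axis, %) at 3 reads or fewer in each library (horizontal axis), for 30 synthetases, 61 factors and all 9966 tested genes. Among synthetases this share is 53.3% for the library labelled Trf1+/+ replicate 1, the highest bar, and 0% in Trf1flox/flox replicate 3.

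Beside genes of similar level the members were not unusual. Between 100 and 300 mean normalized counts, 16 of 23 members (69.6%) reached the floor in at least 1 library, against 64.3% of all tested genes. Between 300 and 1000 counts it was 6 of 38 members (15.8%) against 17.8%, and above 1000 counts 0 of 21 against 0.573%. The median within-group SD of the members followed the same course, at 2.94, 0.99 and 0.60 in these 3 ranges, with 2.80, 1.15 and 0.65 over all genes.

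**Figure D4:**
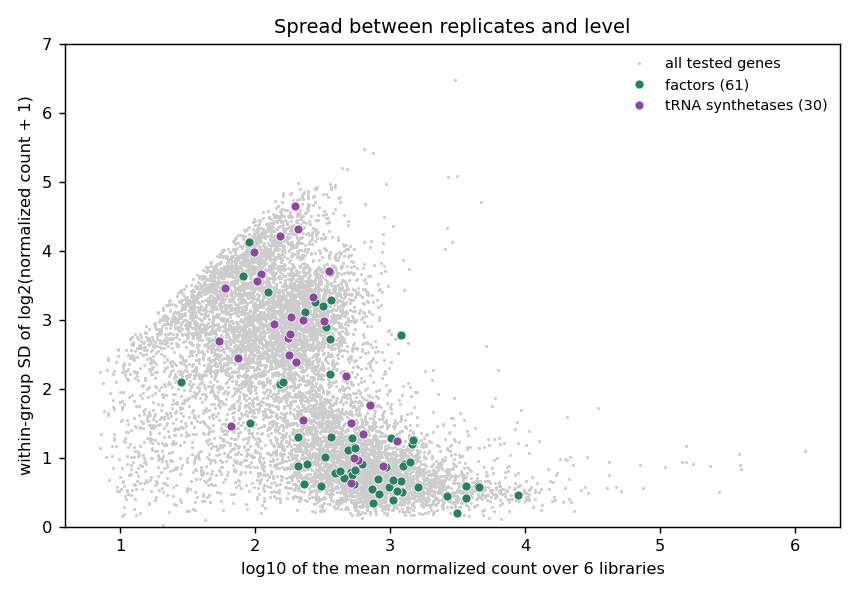
Points give the within-group SD of log2(normalized count + 1) (vertical axis) against log10 of the mean normalized count over 6 libraries (horizontal axis) for 61 factors, 30 synthetases and, in grey, all 9966 tested genes. Members above 1000 counts have a median SD of 0.60 and those between 100 and 300 counts 2.94.

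Among the 16 cytosolic synthetases 7 were higher and 9 lower in Trf1flox/flox, with a median log2 fold change of -0.24 (0.04 with 8 higher after upper quartile scaling). The member with the smallest p was *Vars*, which charges tRNA with valine (ENSMUSG00000007029, chromosome 17, 35000987 to 35016322). Its normalized counts were 0 in all 3 Trf1+/+ libraries and 15.5, 264 and 117 in Trf1flox/flox libraries. No read was found in any Trf1+/+ library, and every Trf1flox/flox library held some. Against a floor of 3 reads per Trf1+/+ library, the Trf1flox/flox mean of 132 ± 125 (SD, n = 3) was at least 48.9-fold higher. This bound covers counting error only and not the spread between libraries. Of all tested genes with a mean of 10 to 100 counts, 86.2% reached the floor in at least 1 library. The fitted log2 fold change of 6.33 ± 1.20 (SE) depends on the pseudocount and is no bound, and limma gave an unadjusted p of 0.00174 and an adjusted p of 0.222. DESeq2 gave an adjusted p of 0.0253, while edgeR gave an unadjusted p of 0.0109 and called no gene. *Vars* passed the filter on low values only through the 3 Trf1flox/flox libraries, so that a tested difference was built into its selection and its p-values support nothing further. Among all tested genes 128 passed through Trf1flox/flox alone, and 126 of them had an unadjusted p under 0.05 in limma. No 50-base stretch of *Vars* occurs in another gene.

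*Gars*, the synthetase for glycine (ENSMUSG00000029777, chromosome 6, 55038007 to 55079500), was the other member at an unadjusted p under 0.05. The Trf1+/+ libraries held 1.78, 1.66 and 128 normalized counts of it and the Trf1flox/flox libraries 132, 432 and 502. The groups did not overlap, but Trf1+/+ replicate 3 and Trf1flox/flox replicate 1 lay next to each other. The log2 fold change was 4.96 ± 1.73 (SE, limma, unadjusted p = 0.0279, adjusted p = 0.938), and the unadjusted p was 0.157 in edgeR. *Lars*, the synthetase for leucine, had 0.891, 142 and 87.7 in Trf1+/+ and 158, 483 and 205 in Trf1flox/flox libraries. Its groups did not overlap either, with a log2 fold change of 3.12 ± 1.79 (SE, limma, adjusted p = 0.996) that became 1.16 without the library labelled Trf1+/+ replicate 1.

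**Figure D5:**
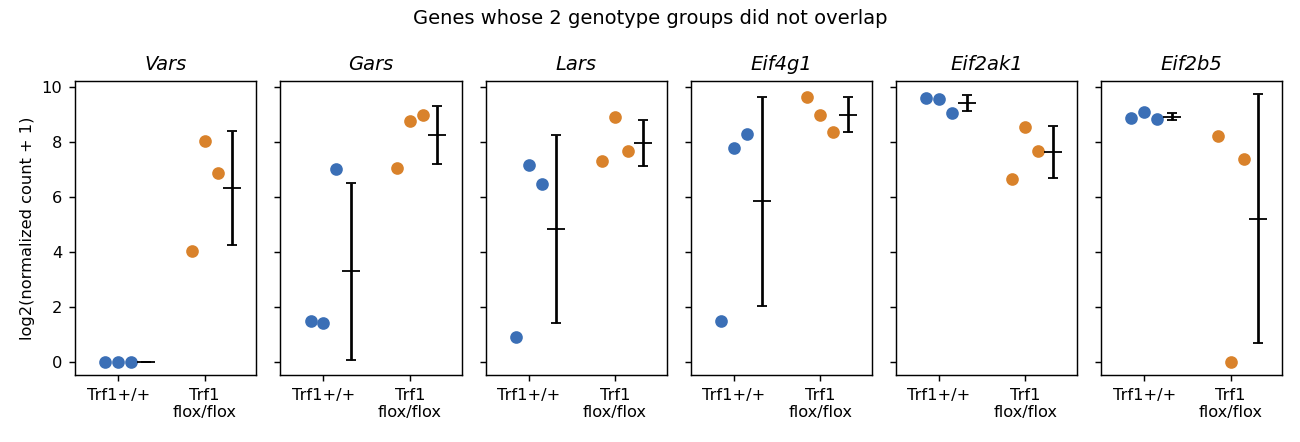
Dots give log2(normalized count + 1) (vertical axis) of the 6 members whose genotype groups did not overlap, for 3 Trf1+/+ libraries (blue) and 3 Trf1flox/flox libraries (orange), in replicate order from left to right. Black bars are group means ± SD. The bars are short for *Eif2b5* in Trf1+/+ and long where 1 library fell to the floor.

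Other cytosolic synthetases had negative fold changes that did not pass the test in limma. *Wars*, the synthetase for tryptophan, had 157, 685 and 0 in Trf1+/+ and 0.859, 0 and 69.6 in Trf1flox/flox libraries. *Rars*, for arginine, had 236, 583 and 0.985 in Trf1+/+ and 0, 0 and 354 in Trf1flox/flox libraries. In each of them both genotypes held libraries at the floor and libraries with 69.6 counts or more, and the log2 fold changes of -3.23 ± 2.87 and -3.20 ± 3.15 (SE, limma, adjusted p = 0.996 for both) were near their errors. *Dars*, for aspartate, was at 3009.7, 2069 and 347 in Trf1+/+ and 308, 664 and 376 in Trf1flox/flox libraries. The first 2 Trf1+/+ libraries were the highest, and the groups overlapped. Its unadjusted p was 0.190 in limma, 0.0214 in edgeR and 0.0145 in DESeq2, with adjusted p of 0.996, 0.9995 and 0.618.

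The 16 mitochondrial synthetases load the tRNAs of the mitochondrial ribosome, and 14 of them were tested. Of these 9 were higher and 5 lower in Trf1flox/flox, with a median log2 fold change of 0.87. In the library labelled Trf1+/+ replicate 1, 10 of the 14 were at the floor, and without that library 4 were higher and the median was -0.40. *Fars2*, for phenylalanine, had 2386, 104 and 384 in Trf1+/+ and 178, 631 and 591 in Trf1flox/flox libraries. It was highest in the same library that lacked most of the others. *Vars2*, the mitochondrial counterpart of *Vars*, had 0, 0 and 0 in Trf1+/+ and 149, 0 and 49.6 in Trf1flox/flox libraries. *Yars2*, for tyrosine, had 0, 0 and 0 in Trf1+/+ and 0, 1.09 and 114 in Trf1flox/flox libraries. Neither was detected in any Trf1+/+ library, but 1 Trf1flox/flox library lacked *Vars2* and 2 held at most 1 read of *Yars2*.

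The promoters of the synthetases were searched because ATF4 is known to act on some of them. Of the 97 members 74 were matched to a RefSeq promoter (GRCm38.p6, 250 bases before to 50 after the start). The letters TGATGNAA, on either strand, occurred in 7 of them (9.46%), against 4.51% of 27025 genes with a promoter and 2.52% of the 9136 listed ones. By role they occurred in 5 of 9 cytosolic synthetases and in 0 of 14 mitochondrial synthetases, and otherwise in *Eef2k* and *Eif2s3x*. The cytosolic synthetases without a matched promoter, *Vars*, *Lars*, *Wars* and *Rars* among them, were not searched. The windows of the 5 cytosolic synthetases are shown on the gene's strand with the element in capitals, the first of 2 for *Aars*:
Aars: cttgagcaTTGCATCAgccgagcc
Gars: ctgcgctaTTTCATCAtgcaccgg
Iars: tgtcagtaTTGCATCAcctccaga
Tars: gagtcccgTTGCATCAgctggtta
Yars: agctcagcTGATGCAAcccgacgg
They lie at chr8:111033722-111033745 (plus strand), chr6:55037963-55037986 (plus), chr13:49682129-49682152 (plus), chr15:11399658-11399681 (minus) and chr4:129189898-129189921 (plus). *Aars*, *Iars*, *Tars* and *Yars* charge tRNA with alanine, isoleucine, threonine and tyrosine. The 5 genes did not move together: *Gars* had a log2 fold change of 4.96 and *Iars* of 1.64, while *Aars*, *Tars* and *Yars* had -0.92, -0.20 and -0.87, and only *Gars* had an unadjusted p under 0.05. A match describes letters and not a bound factor.

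Many translation factor mRNAs are known to start with a C and a run of pyrimidines, through which mTOR controls their translation. A C followed by at least 4 pyrimidines at the annotated start was found in 3 members (4.05%), *Eif2s3x*, *Eif3f* and *Wars2*, against 3.01% of all genes with a promoter. None of the 4 genes grouped with elongation that had a promoter held it in this annotation. Neither element overlapped the other in any of these promoters.

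In limma no gene of the lists around the members differed between the genotypes after adjustment. Of 22 targets of the integrated stress response, the pathway downstream of eIF2α phosphorylation, 16 were listed and 13 tested, with 11 higher and 2 lower in Trf1flox/flox. None passed an unadjusted p under 0.05 in limma. Over all tested genes 5571 of 9966 were higher. The median log2 fold change of the 13 was 1.49. Without the library labelled Trf1+/+ replicate 1, in which 6 of the 13 were at the floor, it was 0.30 with 8 higher. Over all tested genes 4873 were then higher. *Cebpg*, a partner of ATF4 with the smallest p, had 134, 32.3 and 59.1 in Trf1+/+ and 137, 345 and 105 in Trf1flox/flox libraries (limma, unadjusted p = 0.187).

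Of 14 genes that link mTOR and MNK kinases to eIF4, 13 were tested, with 6 higher and 7 lower. *Rps6kb2*, an S6 kinase, was the 1 gene at an unadjusted p under 0.05. It had 0, 0 and 27.6 in Trf1+/+ and 189.9, 211 and 75.1 in Trf1flox/flox libraries, without overlap (log2 fold change 5.57 ± 1.53 SE, limma, unadjusted p = 0.0105, adjusted p = 0.592). *Mtor* itself had 929, 369 and 1551 in Trf1+/+ and 101, 179 and 277 in Trf1flox/flox libraries, also without overlap but in the other direction (unadjusted p = 0.0518 in limma). *Pdcd4*, an inhibitor of eIF4A, was the remaining gene without overlap, at 102, 75.4 and 128 and at 70.5, 6.56 and 61.3. Thus 1 of the 13 was higher and 2 were lower without overlap, where 5.35% and 3.33% of all tested genes were. A list this small cannot be set against those shares. *Mtor* and *Pdcd4* were named after their values were seen.

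The remaining lists held no gene at an unadjusted p under 0.05 in limma. Synthetases and their partners outside the naming rule had 5 of 10 genes higher and a median of -0.29, and *Mars1*, for methionine, had the smallest p (0.232). Termination and recycling factors had 5 of 8 higher and a median of 0.28 (3 higher and -0.39 without the library labelled Trf1+/+ replicate 1), with the smallest p for *Mcts1* (0.257). Mitochondrial translation factors had 6 of 9 higher and a median of 0.74 (-0.31 without the library labelled Trf1+/+ replicate 1), with the smallest p for *Guf1* (0.234). In this last list *Tufm*, the elongation factor that brings tRNA to the mitochondrial ribosome, was without overlap, at 350.0, 376 and 236 in Trf1+/+ and 684, 475 and 451 in Trf1flox/flox libraries, and it was named after its values were seen. It was 1 of 9 tested genes, where 5.35% of all tested genes were higher without overlap.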

How the data were processed

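The authors mapped reads from unstranded libraries to the GRCm38 build, counted them per GENCODE gene and deposited normalized counts, a signal in which each gene's reads are divided by 1 size factor per library. The submitters' processing notes name TopHat2 2.0.10, Bowtie 1.0.0, SAMtools 0.1.19, HTSeq 0.6.1 and DESeq2, and GRCm39 as the build. Whole reads were recovered from 100% of values (tolerance 0.01 read). A count of 3 reads or fewer was treated as the floor, which covers counting error only, since reads were amplified without molecular identifiers.

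Replicates are numbered 1 to 3 within each genotype in accession order, and the numbers pair nothing. Genes whose normalized count reached 10 in 3 or more libraries were tested with limma 3.58.1 (R 4.3.3) on log2(normalized count + 1), two-sided, with Benjamini-Hochberg adjustment over 9966 genes. The alternatives were edgeR 4.0.16 (quasi-likelihood test) and DESeq2 1.42.0 on recovered reads, upper quartile scaling, pseudocounts of 0.5 and 10, no filter, an intensity trend, and each library left out. An exact permutation test of 3 against 3 libraries cannot go below 0.1 and was not used. The scripts were tested on simulated counts that spread less between replicates than these data, which checks the code and not how well the tests work here.

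Positions, exon lengths and 50-base stretches shared between genes came from GENCODE M21 on GRCm38 (96 of 97 members matched) and promoters from RefSeq. Exon lengths count every annotated exon of a gene, so an order between genes per kb depends in part on the annotation. Members named with values were those at an unadjusted p under 0.05 or without overlap, those with the highest mean of their role, those at the floor in all libraries of a group, the 3 highest and 3 lowest fold changes, and a fixed list of well-known factors and kinases. Of each other list, genes at an unadjusted p under 0.05 were named, or the one with the smallest p. The members, roles and lists were chosen with earlier results of these data known.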

Additional observations from a re-analysis of the deposited data

How the results depend on the processing

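DESeq2 called 58 genes and 1 member, *Vars*, where limma and edgeR called 0, and its log2 fold change for *Vars* was 9.65 (adjusted p = 0.0253, against 0.0253 to 0.9995 over all alternatives). *Vars* passed the filter only through the group where it is high. Genes at an unadjusted p under 0.05 numbered 454 in limma, 196 in edgeR and 829 without Trf1+/+ replicate 3. The members among them numbered 2, and 1 to 5 as each library was left out, with 5 without Trf1+/+ replicate 3 and 1 without Trf1flox/flox replicate 2 or 3. The median log2 fold change of the members was 0.32 after upper quartile scaling, against 0.04. With the libraries labelled Trf1+/+ replicate 1 and Trf1flox/flox replicate 2 both left out, an alternative chosen after seeing the data, the members' median was 0.11, 2 members were at an unadjusted p under 0.05 (*Vars* and *Eif3f*), and the synthetases' median was -0.69, against 0.44 with all libraries and -0.40 without the library labelled Trf1+/+ replicate 1. The causes were not tested. The fold changes of *Vars*, *Gars*, *Lars*, *Eif4g1*, *Eif2ak1*, *Eif2b5*, *Eif2b4*, *Wars* and *Rars* kept their sign under every alternative. These genes were named for groups without overlap or for the largest fold changes. A kept sign was largely fixed by that choice and is no support. Other named members did change sign: without the library labelled Trf1+/+ replicate 1, *Eif4e* went from -0.25 to 0.67 and *Fars2* from -0.18 to 1.02. Over the other genes of the pathway, 1 was at an unadjusted p under 0.05 and 0 to 3 were under the alternatives. No paired analysis was possible because the labels give no replicate numbers. For *Eef2k* and *Eif5a2*, at the floor in all 6 libraries, a difference was not detectable at this depth.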
